A study of Mus musculus with 6 samples.

Results

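Described here are 10 imprinted genes of growth control, H19, Meg3, Ndn, Peg3, Grb10, Plagl1, Impact, Mest, Igf2r and Zdbf2, chosen by symbol from the 55487 genes of the deposited table, which held all 10. Imprinted genes are expressed mainly from a single parental copy, the other copy being kept silent by DNA methylation or by a linked noncoding RNA. Many of them set growth: in mice, paternally expressed genes such as Igf2 and Mest tend to promote it and maternally expressed genes such as H19, Igf2r and Grb10 to restrain it. In mouse bone marrow several imprinted genes, H19 and the Dlk1 and Meg3 domain among them, have been described as characteristic of long-term haematopoietic stem cells (LT-HSCs), on which lasting blood formation depends. Gene counts do not tell the parental copies apart, so imprinting itself was not measured.

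The data were 6 poly-A RNA-seq libraries of mouse bone marrow cells labelled LT-HSCs, 3 called Mmrn1-high and 3 called Mmrn1-low. Mmrn1 encodes multimerin 1, known from platelets and endothelium, and every library carries the Mmrn1-GFP genotype, GFP being green fluorescent protein. The labels give no age, sex or surface gate, and do not say whether replicates were separate mice, so the p-values rest on variation among libraries that could be technical alone. Depth was 11595104 to 30909990 counts assigned to genes in Mmrn1-high and 14288095 to 30180151 in Mmrn1-low libraries. Levels are TMM-scaled CPM, that is, CPM corrected for library composition, and 3 counts corresponded to 0.0924 to 0.245 on that scale. Mmrn1 had 8.81, 9.79 and 11.4 TMM-scaled CPM in Mmrn1-high libraries, against 5.64, 5.60 and 5.81 in Mmrn1-low libraries (log2 fold change 0.82 ± 0.12 SE, edgeR quasi-likelihood adjusted p = 4.85e-04). Of 14 stem cell markers, 12 were higher and 0 lower in Mmrn1-high cells, led by Ly6a, which encodes Sca-1. Over all genes tested, 30.7% were higher and 30.5% lower. All 7 markers of granulocyte progenitors were lower, led by the protease gene Prtn3, and their summed level was 3421 to 3494 TMM-scaled CPM in Mmrn1-high and 23177 to 24443 in Mmrn1-low libraries. Granulocyte progenitor transcripts were thus counted in both groups of these cells labelled LT-HSCs. In bulk samples fewer cells of a type and less RNA per cell cannot be told apart.

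The 10 genes fell into 4 that were counted well enough to test and 6 that were hardly counted at all. Impact, Igf2r, Grb10 and Ndn passed the filter on low counts (about 0.646 CPM in 3 libraries). H19, Meg3, Peg3, Plagl1, Mest and Zdbf2 did not, with 0 to 6 counts per library. All 4 tested genes differed between the groups: Impact and Ndn were higher in Mmrn1-high cells and Igf2r and Grb10 lower. In the same test 61.2% of all 15419 tested genes were called, 30.7% higher and 30.5% lower, so a call alone sets these genes little apart. The groups did not overlap for these 4 genes, nor for 67.8% of all genes tested. The median log2 fold change of the 4 was −0.14, against 0.01 over all genes tested.

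**Figure D1:**
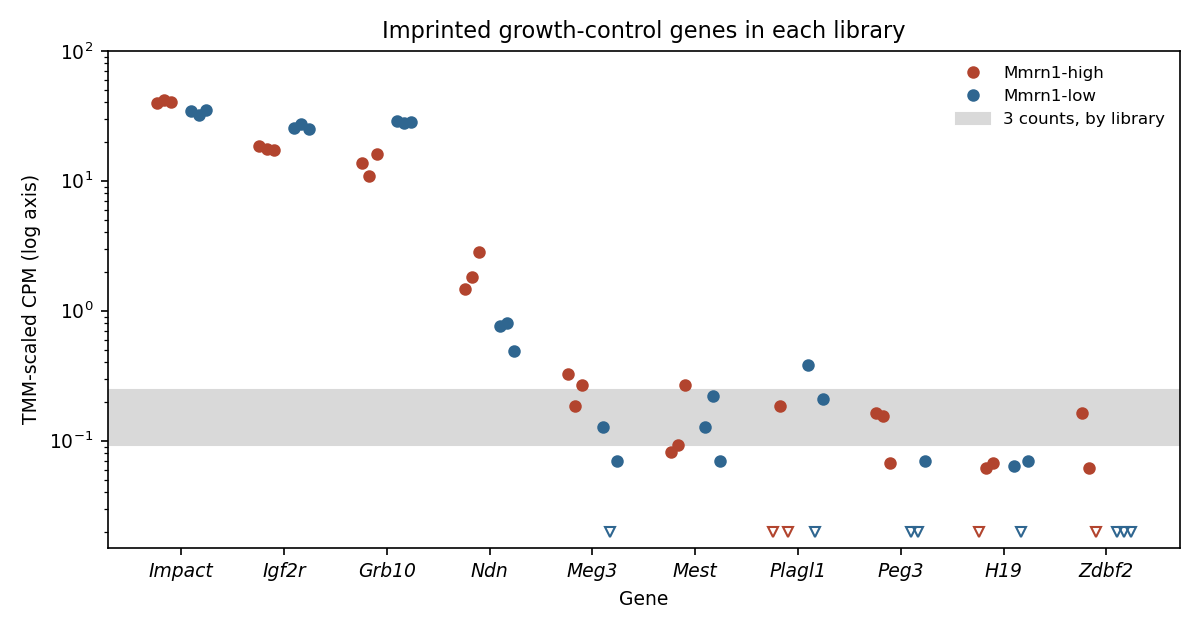
TMM-scaled CPM (log axis) of the 10 imprinted genes in each of the 3 Mmrn1-high and 3 Mmrn1-low libraries, ordered by level; open triangles at the lower edge mark libraries with 0 counts, and the grey band spans the value of 3 counts, 0.0924 to 0.245. Impact, Igf2r, Grb10 and Ndn lie above the band in all libraries, and the other 6 genes lie in it, near it or below it.

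Grb10 showed the largest fall of the 4. It encodes an adaptor that binds the activated insulin and IGF1 receptors and restrains their signalling, and in mice it is expressed from the maternal copy in most tissues (GRCm38 chromosome 11, 11930508 to 12038683, minus strand). Grb10 had 13.7, 10.8 and 16.1 TMM-scaled CPM in Mmrn1-high libraries, against 29.0, 28.0 and 28.3 in Mmrn1-low libraries. The highest Mmrn1-high library lay far below the lowest Mmrn1-low library, and the spread among Mmrn1-high libraries was wider (SD 2.66 against 0.530, n = 3 each). The log2 fold change was −1.08 ± 0.14 SE, or 0.472 times the Mmrn1-low level (edgeR adjusted p = 2.52e-04). On the deposited FPKM with a pseudocount of 1, a scale that understates changes of genes at this level, the log2 difference was −0.61.

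Igf2r fell less. It encodes the cation-independent mannose 6-phosphate receptor, which carries enzymes to lysosomes and removes IGF2 from the cell surface, and it is maternally expressed in mice (chromosome 17, 12682406 to 12769664, minus strand). Its level was 18.4, 17.6 and 17.2 TMM-scaled CPM in Mmrn1-high libraries and 25.4, 27.2 and 24.9 in Mmrn1-low libraries. The libraries were tight within each group and did not overlap between them. The log2 fold change was −0.54 ± 0.07 SE, or 0.688 times the Mmrn1-low level (edgeR adjusted p = 2.11e-04), and −0.27 on FPKM with a pseudocount of 1.

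Impact was the most abundant of the 10 and changed least. It encodes an inhibitor of GCN2, the kinase that slows translation when amino acids run short, and is paternally expressed in mice (chromosome 18, 12955852 to 12992950, plus strand). Impact had 39.7, 41.7 and 40.3 TMM-scaled CPM in Mmrn1-high libraries, against 34.3, 32.0 and 35.1 in Mmrn1-low libraries. Every Mmrn1-high library was above every Mmrn1-low library. The log2 fold change was 0.26 ± 0.06 SE, a 1.20-fold higher level (edgeR adjusted p = 0.00425), and it was 0.41 with scaling by library size alone, which moved the fold changes of all genes up by a median of 0.15.

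Ndn had the largest rise but few counts. It encodes necdin, a paternally expressed growth suppressor that binds E2F1 and p53 and has been linked to quiescence of mouse stem cells (chromosome 7, 62346569 to 62350262, plus strand). It had 18, 59 and 42 counts in Mmrn1-high libraries, against 12, 11 and 14 in Mmrn1-low libraries. On the TMM scale these were 1.47, 1.82 and 2.81 CPM in Mmrn1-high libraries, against 0.760, 0.810 and 0.487 in Mmrn1-low libraries. The groups did not overlap, with the widest relative spread of the 4 genes within each group. The log2 fold change was 1.63 ± 0.33 SE, a 3.09-fold higher level (edgeR adjusted p = 0.00287). All 3 Mmrn1-high libraries but only 2 of the 3 Mmrn1-low libraries reached the filter level, so its place among the tested genes owed something to its level in Mmrn1-high cells. On FPKM with a pseudocount of 1 and no filter the log2 difference was 0.42. That scale understates its change, as Ndn was at 0.126 to 0.799 FPKM, below the pseudocount.

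**Figure D2:**
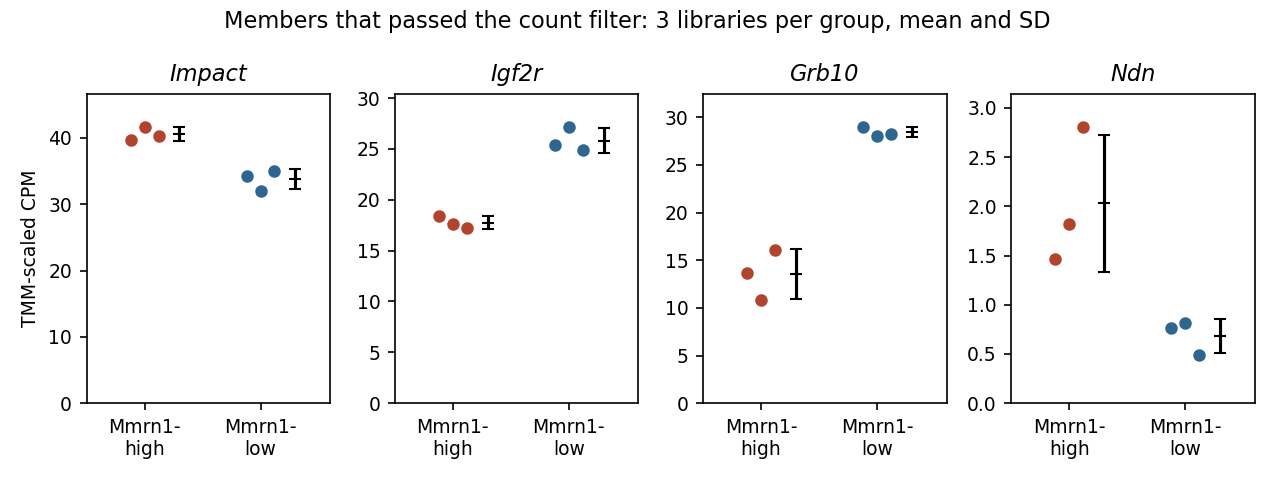
TMM-scaled CPM (linear axis from 0) of Impact, Igf2r, Grb10 and Ndn in the 3 Mmrn1-high and 3 Mmrn1-low libraries; points are libraries and the black bar beside them is the mean with its SD. Impact and Ndn are higher and Igf2r and Grb10 lower in Mmrn1-high cells, with no overlap between groups.

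Levels were compared between genes per length, on the deposited FPKM. In Mmrn1-high cells Impact stood first at 6.50 ± 0.148 FPKM, followed by Igf2r at 1.94 ± 0.0765, Grb10 at 1.41 ± 0.277 and Ndn at 0.579 ± 0.197 (SD, n = 3). No neighbours in that order overlapped between libraries. In Mmrn1-low cells Impact was at 4.89 ± 0.230 FPKM, Grb10 at 2.67 ± 0.0450, Igf2r at 2.55 ± 0.118 and Ndn at 0.176 ± 0.0445 (SD, n = 3), and the libraries of Grb10 and Igf2r overlapped. The mean of Igf2r was thus above that of Grb10 in Mmrn1-high cells, while the overlap in Mmrn1-low cells leaves their order there unsettled. Impact exceeded 58.1% of tested genes in Mmrn1-high and 52.9% in Mmrn1-low cells, whereas Grb10 exceeded 23.4% and 39.2% and Ndn 11.6% and 6.12%, each in that order of groups. The summed FPKM of all 10 genes was 10.3 to 10.9 in Mmrn1-high and 10.2 to 10.4 in Mmrn1-low libraries, and the 4 tested genes made up 99.4% to 99.6% and 99.5% to 99.7% of it. The length behind a gene's FPKM could exceed its merged annotated exons (8060 against 2460 bases for H19), but per kilobase of merged exons these 4 genes kept the same order.

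Among the 6 genes below the filter, the long noncoding RNAs come first. H19, a maternally expressed RNA that hosts miR-675 (chromosome 7, 142575529 to 142578143), had 0, 2 and 1 counts in Mmrn1-high libraries, against 1, 0 and 2 in Mmrn1-low libraries. The sum was 3 counts in each group, so H19 was at the limit of detection in these LT-HSC-labelled cells and no difference was detectable at this depth. Meg3, the maternally expressed RNA of the Dlk1 to Dio3 domain (chromosome 12, 109541001 to 109571726), had 4, 6 and 4 counts in Mmrn1-high libraries, against 2, 0 and 2 in Mmrn1-low libraries. Its groups did not overlap on the TMM scale (0.185 to 0.326 CPM in Mmrn1-high and 0 to 0.127 in Mmrn1-low libraries), but the values lie close to those of 3 counts. H19 and Meg3 share 225 and 1499 exon bases with other annotated genes, mostly on the opposite strand, and no source used here states the strand setting of the counting.

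The paternally expressed genes of this set were as sparse. Peg3, a zinc finger protein gene (chromosome 7, 6703892 to 6730431), had 2, 5 and 1 counts in Mmrn1-high libraries, against 0, 0 and 2 in Mmrn1-low libraries. Plagl1, which encodes a zinc finger regulator of cell cycle arrest also known as ZAC1 (chromosome 10, 13060504 to 13131694), had 0, 6 and 0 counts in Mmrn1-high libraries, against 6, 0 and 6 in Mmrn1-low libraries. Both genes overlapped between the groups. Mest, which encodes a protein of the alpha/beta hydrolase fold (chromosome 6, 30723547 to 30748465), had 1, 3 and 4 counts in Mmrn1-high libraries, against 2, 3 and 2 in Mmrn1-low libraries, and 23.1% of its exon bases are shared with Copg2 on the opposite strand. Zdbf2, a zinc finger gene active on the paternal copy (chromosome 1, 63273265 to 63314576), had 2, 2 and 0 counts in Mmrn1-high libraries and 0 in all 3 Mmrn1-low libraries. Of the 36 values of these 6 genes, 12 were 0 and the highest was 0.380 CPM, of Plagl1 in Mmrn1-low replicate 1. Without the filter, edgeR called 0 of the 6 (0 at an unadjusted p under 0.05; adjusted p 0.128 to 0.998), and limma on FPKM likewise called 0, with 0 at an unadjusted p under 0.05. The lowest of these edgeR values was that of Meg3 (log2 fold change 1.75).

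Promoter windows, the 250 bases before a RefSeq transcription start (GRCm38.p6), were read for 8 of the 10 genes. Those that lie outside annotated exons are shown, which are windows of Grb10, Igf2r, Meg3 and Mest. Capitals mark the hexamer TGCCGC, searched on both strands (GCGGCA on the other); it is the motif that the imprint-keeping factor ZFP57 recognises when its CpG is methylated. Grb10 is shown at the more upstream of its RefSeq starts (chr11:12037421-12037670, minus strand) and at a start further into the gene (chr11:12027972-12028221, minus strand), Igf2r at chr17:12769707-12769956 (minus strand), Meg3 at chr12:109540746-109540995 (plus strand) and Mest at chr6:30737800-30738049 (plus strand). The upstream Grb10 window lies inside the annotated gene, which on this strand begins at 12038683. The bases just after this window, and after those of Igf2r and Meg3, were found in no annotated transcript of the gene.
Grb10 upstream start: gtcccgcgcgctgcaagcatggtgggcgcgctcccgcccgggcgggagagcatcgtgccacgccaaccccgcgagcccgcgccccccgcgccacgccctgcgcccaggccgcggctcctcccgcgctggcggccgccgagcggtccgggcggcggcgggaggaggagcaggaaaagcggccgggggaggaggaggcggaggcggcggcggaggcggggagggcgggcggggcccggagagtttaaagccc
Grb10 inner start: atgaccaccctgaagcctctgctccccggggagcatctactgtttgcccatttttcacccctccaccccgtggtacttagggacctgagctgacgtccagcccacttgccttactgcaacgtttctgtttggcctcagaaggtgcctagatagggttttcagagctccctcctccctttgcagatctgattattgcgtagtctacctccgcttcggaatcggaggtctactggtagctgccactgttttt
Igf2r: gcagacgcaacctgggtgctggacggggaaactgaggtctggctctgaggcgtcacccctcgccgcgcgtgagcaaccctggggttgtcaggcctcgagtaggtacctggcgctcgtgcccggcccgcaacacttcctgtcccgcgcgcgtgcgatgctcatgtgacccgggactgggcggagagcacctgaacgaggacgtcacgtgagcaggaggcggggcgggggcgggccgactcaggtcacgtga
Meg3: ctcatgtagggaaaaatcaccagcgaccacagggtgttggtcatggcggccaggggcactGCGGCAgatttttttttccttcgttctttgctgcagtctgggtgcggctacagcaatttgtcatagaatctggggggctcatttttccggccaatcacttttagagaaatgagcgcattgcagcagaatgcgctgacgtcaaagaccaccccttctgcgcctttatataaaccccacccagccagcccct
Mest: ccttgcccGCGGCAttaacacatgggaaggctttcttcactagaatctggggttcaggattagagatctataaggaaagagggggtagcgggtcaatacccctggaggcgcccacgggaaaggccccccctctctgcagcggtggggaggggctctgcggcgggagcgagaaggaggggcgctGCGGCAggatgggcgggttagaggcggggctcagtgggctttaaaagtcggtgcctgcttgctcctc

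The upstream Grb10 window was 81.2% G or C with 40 CpG sites, an observed over expected CpG ratio of 0.983, and the Igf2r window 69.2% with 27 sites and a ratio of 0.913. The inner Grb10 window held 8 sites, the Meg3 window 10 and the Mest window 14. The median over 32841 mouse windows of this length was 6 sites and a ratio of 0.374. The hexamer occurred 0 times in both Grb10 windows and in that of Igf2r, once in Meg3 and at 2 places in Mest, and 8.68% of all windows held it. Among the 13 windows of the 8 members that matched the RefSeq table, 5 held it, of Meg3, Plagl1, Mest (at a pair of overlapping windows) and Zdbf2. Windows of H19 and Impact were not analysed here. These matches describe the letters in the windows only; neither methylation nor binding was measured.

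Genes beside the members, 31 in all, were looked at for each domain. Of these, 8 were tested, 5 were higher in Mmrn1-high cells, 0 were lower and 3 were not called, while 12 had no count in any library. The share called, 5 of 8, was near the 61.2% over all genes tested. Next to Ndn, Mkrn3, a paternally expressed ubiquitin ligase gene, had 2.28, 2.001 and 2.61 TMM-scaled CPM in Mmrn1-high libraries, against 0.127, 0.589 and 0.591 in Mmrn1-low libraries (log2 fold change 2.29 ± 0.37 SE, edgeR adjusted p = 8.80e-04). Peg12, a paternally expressed gene of the FRAT family of GSK3 binding proteins, had 5.38, 8.03 and 6.96 CPM in Mmrn1-high libraries, against 3.55, 4.49 and 3.93 in Mmrn1-low libraries (0.79 ± 0.17 SE, edgeR adjusted p = 0.00400). The paternally expressed Ndn, Mkrn3 and Peg12, close together on chromosome 7, were thus all higher in Mmrn1-high cells, while Magel2, which lies between Ndn and Mkrn3, had no count. Mkrn3 reached the filter level in 0 Mmrn1-low libraries, so it was tested only because of its level in Mmrn1-high cells.

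Further along the same domain, Ube3a, a ubiquitin ligase gene imprinted in neurons, had 43.6, 32.8 and 29.5 TMM-scaled CPM in Mmrn1-high libraries, against 43.7, 130 and 139 in Mmrn1-low libraries. Mmrn1-low replicate 1 stood with the Mmrn1-high libraries, and the difference missed the threshold (log2 fold change −1.57 ± 0.52 SE, edgeR adjusted p = 0.0564; −1.92, adjusted p = 0.00133 without that library). Ube3a shares 27.3% of its exon bases with Snhg14 and other models on the opposite strand. Snrpn, a paternally expressed splicing gene, had 9 counts in each group. It shares 34.1% of its exon bases with other annotated genes, including 589 bases on the same strand.

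Next to Igf2r, Slc22a3, an organic cation transporter gene imprinted in mouse placenta, went the other way. It had 121, 119 and 125 TMM-scaled CPM in Mmrn1-high libraries, against 42.8, 45.1 and 43.3 in Mmrn1-low libraries (log2 fold change 1.48 ± 0.04 SE, edgeR adjusted p = 5.91e-08). Airn, the paternally expressed RNA that silences the domain in cis, had 10 counts in Mmrn1-high and 3 in Mmrn1-low libraries, too few to test. Next to Impact, Osbpl1a, which encodes an oxysterol binding protein, was 2.23-fold higher in Mmrn1-high cells (1.15 ± 0.05 SE, edgeR adjusted p = 3.29e-07), against 1.20-fold for Impact itself. Copg2, a coat protein gene beside Mest, had 106 ± 2.32 CPM in Mmrn1-high and 103 ± 2.49 in Mmrn1-low cells (SD, n = 3; adjusted p = 0.381), and was called higher with scaling by library size alone (0.19, adjusted p = 0.00223). Phactr2, which adjoins Plagl1, was 1.15-fold higher (0.20 ± 0.04 SE, edgeR adjusted p = 0.00319).

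In the H19 domain, Igf2, the paternally expressed growth factor, had 0 counts in Mmrn1-high and 1 in Mmrn1-low libraries, and Ins2 and Nctc1 had 0 in all. Igf2 shares 64.5% of its exon bases with other annotated genes, including 3596 bases on the same strand. The effect of this sharing on its counts was not tested. In the Meg3 domain, Rian, another maternally expressed noncoding RNA, had 17, 10 and 16 counts in Mmrn1-high libraries, against 10, 11 and 10 in Mmrn1-low libraries (log2 fold change 0.51 ± 0.63 SE, edgeR adjusted p = 0.513). Dlk1, which encodes a Notch-like membrane protein, had 18 counts in Mmrn1-high and 5 in Mmrn1-low libraries, and Mirg had 14 and 7, in the same order of groups. Each of the domain's 3 maternal RNAs was thus counted in both groups, at low levels. The remaining neighbours with counts could not be tested. Beside Grb10, Ddc had 19 counts in Mmrn1-high and 10 in Mmrn1-low libraries and Cobl 3 and 2, beside Zdbf2, Adam23 had 0 and 5, beside Impact, Hrh4 had 2 and 0, beside Mest, Klf14 had 2 and 0, and beside Ndn, Snurf had 1 and 0, Mmrn1-high libraries first throughout. All 216 exon bases of Snurf are shared with Snrpn or another annotated gene on the same strand. The genes with no count were Ins2, Nctc1, Rtl1, Dio3, Magel2, Cpa4, Slc22a2, Mas1, Gpr1 and, beside Peg3, Usp29, Zim1 and Zfp264.

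**Figure D3:**
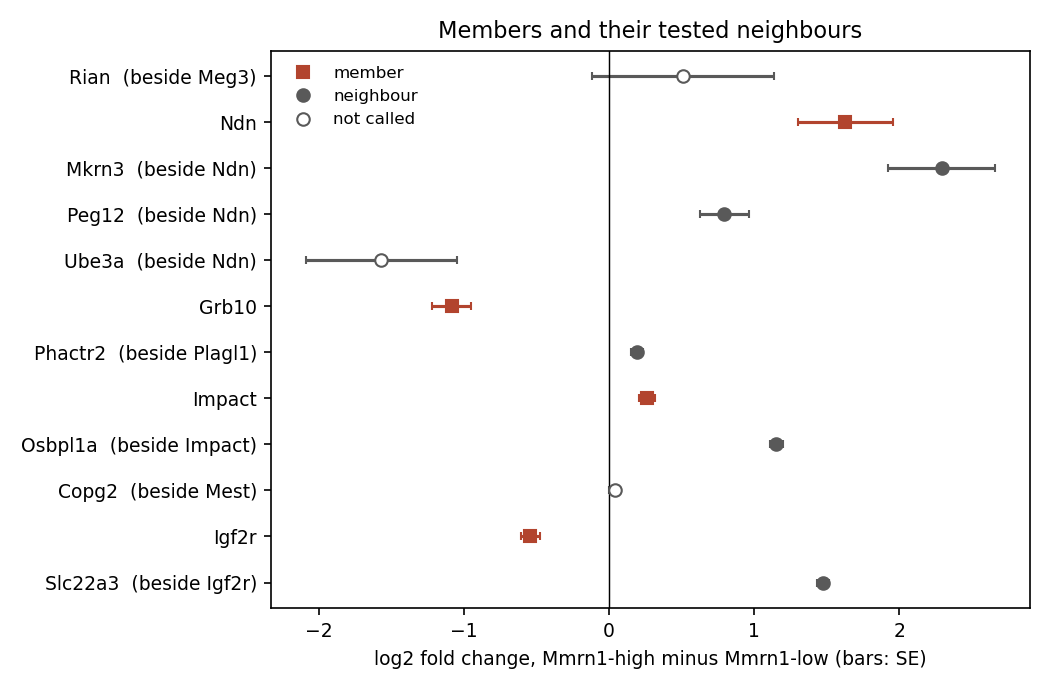
Log2 fold change, Mmrn1-high minus Mmrn1-low, of the 4 tested imprinted genes (squares) and their 8 tested neighbours (circles) with the SE as bar; open symbols were not called. Ndn, Mkrn3 and Peg12 lie above 0 together, while Igf2r at −0.54 and its neighbour Slc22a3 at 1.48 lie on opposite sides.

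Set against other mouse genes reported to be imprinted in at least some tissue, the paternally expressed list of 35 genes held 13 tested, of which 10 were higher in Mmrn1-high cells, 0 lower and 3 not called, with a median log2 fold change of 0.65. Scaling by library size alone gave 12 higher and 0 lower. With the members left out, 8 of 11 were higher and 0 lower, with the same median. These 8 included Mkrn3, tested only because of its level in Mmrn1-high cells, and Peg12 from the same cluster beside Ndn. Peg13, a noncoding RNA within Trappc9, was at 102 ± 5.98 TMM-scaled CPM in Mmrn1-high and 48.1 ± 2.19 in Mmrn1-low cells (SD, n = 3; log2 fold change 1.09 ± 0.06 SE, edgeR adjusted p = 1.51e-06). Sgce, which encodes epsilon-sarcoglycan (1.72 ± 0.19 SE), and Zrsr1, a splicing factor gene (0.65 ± 0.10 SE), were also higher. The 3 not called were Peg10, Kcnq1ot1 and Bcl2l1.

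The maternally expressed list of 40 genes held 26 tested, 8 higher, 8 lower and 10 not called, with a median of −0.0002, and 10 higher and 5 lower with library size scaling. Its called share of 61.5% was near the 61.2% over all genes tested, so the counts set this list little apart. Besides Igf2r and Grb10, the lower genes included Gatm, which encodes the first enzyme of creatine synthesis (118 ± 4.16 TMM-scaled CPM in Mmrn1-high and 402 ± 8.05 in Mmrn1-low cells, SD, n = 3; −1.77 ± 0.03 SE). Ago2 was lower by little (−0.23 ± 0.03 SE), a call lost with library size scaling (−0.08, adjusted p = 0.0543). Higher were Slc22a3, Osbpl5 (1.22 ± 0.07 SE), the phospholipid flippase gene Atp10a (0.50 ± 0.04 SE) and Ppp1r9a (1.15 ± 0.11 SE). Cdkn1c, the cell cycle inhibitor p57, picked here after its values were seen, had 4.73, 2.89 and 3.81 CPM in Mmrn1-high libraries, against 1.20, 1.47 and 1.36 in Mmrn1-low libraries (1.46 ± 0.23 SE, edgeR adjusted p = 7.08e-04). Many of these genes are imprinted in placenta or brain only, and both lists were read by counts alone.

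Grb10 and Igf2r act on insulin-like growth factor signalling, so its ligands, receptors and downstream genes were listed too. Of 39 genes in this list, 24 were tested, 5 were higher in Mmrn1-high cells, 10 lower, Igf2r and Grb10 among them, and 9 not called, with a median of −0.12. In all, 62.5% of the list was called, near the 61.2% over all genes tested. Library size scaling gave 8 higher and 7 lower. The ligand gene Igf1 had 0.163, 0.154 and 0.134 TMM-scaled CPM in Mmrn1-high libraries, against 1.71, 1.62 and 1.46 in Mmrn1-low libraries (log2 fold change −3.34 ± 0.29 SE, edgeR adjusted p = 2.57e-05). The receptor gene Igf1r had 187, 193 and 198 CPM in Mmrn1-high libraries, against 238, 239 and 235 in Mmrn1-low libraries (−0.30 ± 0.03 SE, edgeR adjusted p = 6.34e-05). Igf1r counts were thus far above those of Igf2r in both groups, on a scale that does not allow for length. Grb14, the relative of Grb10 that also restrains the insulin receptor, fell to 0.342 ± 0.0828 CPM in Mmrn1-high cells, against 2.16 ± 0.0881 in Mmrn1-low cells (SD, n = 3; −2.56 ± 0.24 SE), and the adaptor gene Shc1 fell (−0.47 ± 0.04 SE). Igf1 and Grb14 reached the filter level in 0 Mmrn1-high libraries, so both were tested only because of their level in Mmrn1-low cells. Among the genes that rose were Foxo1 (1.31 ± 0.10 SE) and Foxo3 (0.65 ± 0.04 SE), which encode transcription factors held back by this pathway, Tsc1 (0.26 ± 0.05 SE) and Igfbp7 (0.85 ± 0.32 SE). The call of Igfbp7 (edgeR adjusted p = 0.0482) was lost when any library other than Mmrn1-low replicate 2 was left out (adjusted p 0.0611 to 0.144), with DESeq2 (0.152), with the replicate number as a block (0.0635) and with limma on unfiltered FPKM (0.0722).

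A list of genes that set, keep or remove DNA methylation and imprints, here called imprint maintenance, numbered 29. It took in DNA methyltransferases, demethylation genes, chromatin factors and zinc finger factors. Of these genes 25 were tested, 9 higher, 7 lower and 9 not called, with a median of 0.01. With 64.0% called, this list too was near the 61.2% over all genes tested. Library size scaling gave 16 higher and 5 lower. The maintenance methyltransferase gene Dnmt1 was at 538 ± 0.895 TMM-scaled CPM in Mmrn1-high and 664 ± 8.91 in Mmrn1-low cells (SD, n = 3; log2 fold change −0.30 ± 0.02 SE, edgeR adjusted p = 1.28e-05), and Mbd3 (−0.52 ± 0.04 SE), Hnrnpu (−0.37 ± 0.04 SE) and Smchd1 (−0.36 ± 0.04 SE) fell too. Dnmt3b rose (0.57 ± 0.04 SE), as did the demethylation gene Tet1 (0.64 ± 0.06 SE), Arid4b (0.56 ± 0.05 SE) and Arid4a (0.48 ± 0.05 SE). Zfp57, whose product recognises the hexamer marked above and which was picked after its values were seen, had 2.86, 2.15 and 3.81 CPM in Mmrn1-high libraries, against 0.9505, 1.03 and 0.731 in Mmrn1-low libraries (1.70 ± 0.28 SE, edgeR adjusted p = 0.00102). Its cofactor gene Trim28 was abundant in both groups, at 601 ± 4.96 CPM in Mmrn1-high and 557 ± 22.0 in Mmrn1-low cells (SD, n = 3; 0.11 ± 0.03 SE).

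**Figure D4:**
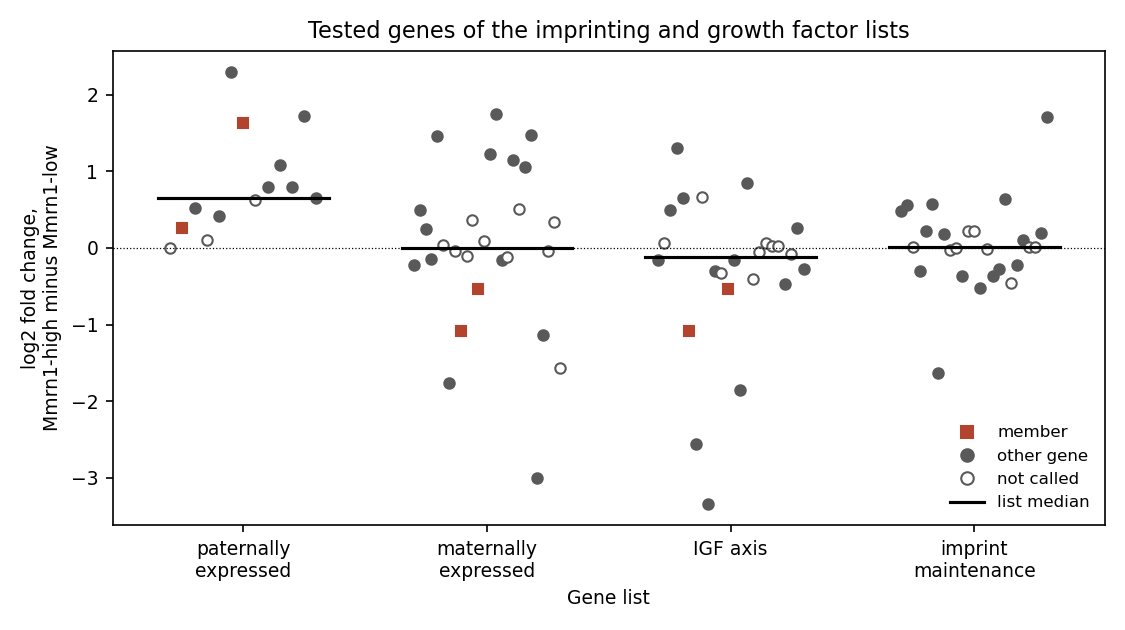
Log2 fold change, Mmrn1-high minus Mmrn1-low, of the tested genes of 4 lists (paternally expressed, maternally expressed, IGF axis and imprint maintenance); red squares are members, grey circles other genes, open circles genes not called, and black lines list medians. Over all genes tested 30.7% were higher and 30.5% lower in Mmrn1-high cells. The 10 called paternally expressed genes all lie above 0, among them Mkrn3, which was tested only because of its level in Mmrn1-high cells. The maternally expressed ones lie on both sides, and the medians of these lists are 0.65 and −0.0002, paternal first. Within a list the horizontal position is alphabetical and carries no value.

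Markers of other cells moved between the groups as well. Among all genes tested 61.2% were called, 30.7% higher and 30.5% lower. Beside the falls of Grb10, Igf2r and Igf1, 11 of 14 macrophage and monocyte markers were lower and 2 higher, led by the adhesion receptor gene Vcam1, with a summed level of 164 to 175 TMM-scaled CPM in Mmrn1-high and 283 to 293 in Mmrn1-low libraries. The granulocyte progenitor markers given above fell with them. Beside the rises of Ndn and Impact, 7 of 12 T and natural killer cell markers were higher and 4 too low to test, but the cytotoxic granule gene Nkg7 fell, and the summed level was 201 to 208 CPM in Mmrn1-high and 478 to 483 in Mmrn1-low libraries. Nkg7 alone had 102 ± 1.18 CPM in Mmrn1-high and 448 ± 3.11 in Mmrn1-low cells (SD, n = 3). The lower sum in Mmrn1-high libraries was thus that of Nkg7, against the rise of the 7. Of 12 B and plasma cell markers, 7 were higher and 2 lower, led by Igkc, which fell, and the sums were 366 to 404 in Mmrn1-high and 690 to 707 in Mmrn1-low libraries. Most of these sums was Igkc, with 272 ± 0.391 CPM in Mmrn1-high and 541 ± 7.88 in Mmrn1-low cells (SD, n = 3). Stromal and endothelial cells, in which H19, Igf2 and other imprinted genes can be high, were marked by 12 genes each. The stromal sum was 139 to 148 CPM in Mmrn1-high and 56.5 to 59.0 in Mmrn1-low libraries, most of it Pdgfrb, with 3 of 6 tested markers higher and 3 lower. Among the stromal markers too low to test, Lum had 0 counts, Pdgfra 3 and 4 and Dcn 1 and 4, Mmrn1-high first. Whether stromal cells were present was not tested. The endothelial sum was 171 to 185 CPM in Mmrn1-high and 120 to 129 in Mmrn1-low libraries, with 5 markers higher and 3 lower, led by Pecam1, which stem cells also express and which was higher. Of 11 erythroid markers, 2 were higher and 3 lower, led by Car1, which fell, with sums of 417 to 426 in Mmrn1-high and 379 to 385 in Mmrn1-low libraries. The part of any of these cells in the members' differences was not tested.

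The genes most like each tested member over the 6 libraries, by Pearson's r of log2 CPM, were Nelfe for Igf2r (r = 0.9997), Btla for Impact (0.9997), Gpr160 for Grb10 (0.998) and Zfp125 for Ndn (0.998). The 6 libraries share the 2 groups, and many genes score as high: 2360 genes had an r over 0.95 with Igf2r and 320 with Ndn. Between the members themselves r was 0.931 for Grb10 and Igf2r and 0.809 for Ndn and Impact, and −0.980 for Impact and Igf2r.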

How the data were processed

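The members and gene lists were chosen with earlier results of these data known. Paired-end libraries were prepared from poly-A RNA with a stranded kit, per the labels. The submitters' processing notes list edgeR, StringTie, HISAT2 and CASAVA 1.8, and GRCm38 as build, with no roles. Per the file headers, the deposited table holds raw counts per gene and the authors' FPKM, which equalled count over length and library total. Counts were tested with edgeR 4.0.16 (R 4.3.3): quasi-likelihood F test, robust fitting, TMM factors, filterByExpr, group as the only term, Benjamini-Hochberg adjustment over all 15419 genes tested, called under 0.05. Log2 fold changes are Mmrn1-high minus Mmrn1-low; the SE is the fold change over the square root of F. Precision follows the count totals, and intervals of counting error were not used. The procedure was run on simulated data in which few genes changed, in random directions. That setting differs from these data, where 61.2% of tested genes were called, so it does not test the scaling. Coordinates and exon overlaps come from GENCODE M21 (GRCm38), which matched 55141 of 55487 identifiers, and promoters from RefSeq (GRCm38.p6). Named genes were the 10 members, Mmrn1, listed neighbours, up to 4 called genes per direction with the smallest p in each list, leading markers, genes in counts of 5 or fewer, and the most alike gene of each tested member (H19 was not tested, so has none). A gene that this rule takes is not reported here. Repeats used DESeq2 1.42.0, voom with quality weights (limma 3.58.1), a replicate block, RLE factors or library size alone as scaling, no count filter or 5 CPM in 3 libraries, an adjusted p under 0.01, a log2 fold change beyond 1 in size, and each library left out in turn. FPKM were tested with limma-trend after adding a pseudocount of 1 or 0.1, among genes reaching 1 FPKM in 3 libraries, or with no such filter. Python 3.11.15 with pandas 2.3.3 and matplotlib 3.10.9 made tables and figures.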

Additional observations from a re-analysis of the deposited data

How the results depend on the processing

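Impact, Igf2r, Grb10 and Ndn kept their direction under every alternative in which they were tested, and stayed called under all of these but the fold change minimum, which Impact and Igf2r did not reach. Ndn fell below the filters of 5 CPM and of 1 FPKM and has no value there. Over all alternatives the log2 fold change ranged from 0.23 to 0.41 for Impact, from −0.57 to −0.27 for Igf2r, from −1.23 to −0.61 for Grb10 and from 0.42 to 1.77 for Ndn, with highest adjusted p-values of 0.0193, 0.0149, 0.00504 and 0.0202. The values of 0.42 for Ndn and −0.61 for Grb10 came from FPKM with a pseudocount of 1, which understates changes at their levels. With a library left out, Ndn ranged from 1.37 to 1.77. No pairing by replicate number showed, though a weak pairing could be missed. Deviations of same-numbered libraries correlated at 0.0426, −0.0785 and 0.0286, and those of differently numbered libraries at −0.0927 to 0.0715. With the replicate number as a block, 8924 genes were called and the 4 fold changes were 0.26 for Impact, −0.54 for Igf2r, −1.09 for Grb10 and 1.63 for Ndn. With log2 fold changes also required to exceed 1 in size, 2492 genes were called, or 16.2% of those tested. Among them were 2 of 4 tested members (Grb10 and Ndn), 10 of 26 in the maternally and 4 of 13 in the paternally expressed list. The IGF axis had 5 of 24 and the imprint maintenance list 2 of 25. The filter of 5 CPM left 10 of 19 called in the maternally and 6 of 8 in the paternally expressed list, and 7654 of 11687 over all genes. FPKM with a pseudocount of 1 or 0.1 left 10 of 20 (6 higher and 4 lower) and 6 of 7. Over all 13146 genes tested on FPKM, 7819 and 7791 were called. Leaving out a library gave 8624 to 8874 calls. Scaling by library size alone called 6195 genes higher and 3197 lower in Mmrn1-high cells (66.0% higher), against 4737 and 4701 (50.2% higher) with TMM, so directions of small changes are relative to the scaling. Depth limits the 6 genes below the filter, whose 0 to 6 counts per library allow no statement on a difference.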
